A study of Mus musculus with 12 samples.

Results

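The 28 genes described here cover the route by which a cell makes cholesterol and the factors that sense, regulate and move it. The list gives them by name, with no threshold on a measured value, and all 28 were found among the 23423 rows of the expression table, 1 of them (Msmo1) under its older symbol Sc4mol. By role they comprise 7 genes of the mevalonate branch, 3 that make squalene and turn it into lanosterol, and 8 that turn lanosterol into cholesterol. The others are 5 genes of the SREBP axis, 3 that carry or export sterols, and the 2 liver X receptors (LXR). All 28 passed the filter on low values (at least 1 CPM, reads scaled to equal library totals, in at least 2 libraries), as did 13977 genes in all.

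The study sequenced polyadenylated RNA from heart cells of neonatal CD1 mice at postnatal day 1.5, in 6 groups of 2 libraries. The 4 cultured groups were heart fibroblasts infected with retrovirus and collected at day 3: shPtbp1 cultures received MGT and a lentiviral hairpin against the splicing regulator Ptbp1, shNT cultures received MGT and a non-targeting hairpin, MGT cultures received MGT alone, and control cultures received the control retrovirus. MGT is a single retroviral construct that encodes the heart transcription factors Mef2c, Gata4 and Tbx5, which together turn some fibroblasts into cardiomyocyte-like cells. The 2 fresh groups were uncultured cardiomyocytes from a neonatal heart isolation kit and uncultured fibroblasts purified with Thy1 antibody on magnetic beads. All cultured groups therefore shared plating on gelatin, serum-containing medium, retroviral infection and the days in culture, and both hairpin groups also shared a lentivirus that MGT and control cultures lacked. The labels call the control vector lacZ in one field and empty in another, and replicate 2 of the shPtbp1 cultures has a source label that names Ptbp2. The cultures are mixtures of cells that did and did not respond to MGT, and nothing in the labels says that the paired replicates had separate animals or dishes as their source. The p-values therefore reflect differences between libraries that may be technical.

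Cholesterol is built from acetyl-CoA through mevalonate and isoprenoid units to squalene, which is closed into lanosterol and then trimmed to cholesterol in the endoplasmic reticulum. When membrane sterol falls, Scap escorts the SREBP transcription factors to the Golgi, where they are cut and released to raise the genes of the pathway, whereas Insig proteins hold Scap back when sterol is plentiful. Surplus cholesterol is turned in part into oxysterols that activate LXR, and LXR in turn raises the exporters Abca1 and Abcg1.

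Depth was 49320858 to 94005212 assigned reads per library, so that 1 read was worth 0.0106 to 0.0203 CPM, and levels below are CPM divided by a library scaling factor of 0.966 to 1.06 (scaled CPM). Ptbp1 stood at 81.1 and 78.5 scaled CPM in shPtbp1 cultures, against 359.8 and 365 in shNT cultures, 22.1% of the shNT level (log2 fold change -2.18 ± 0.034, adjusted p = 8.25e-19). It was low in both shPtbp1 libraries, as their titles label them. Summed over 12 cardiomyocyte markers, fresh cardiomyocytes held 20180 to 21020 scaled CPM and fresh fibroblasts 2088 to 2148, and over 11 fibroblast markers fresh cardiomyocytes still held 25580 to 25630 and fresh fibroblasts 44050 to 44960, so markers of both types were present in each fresh preparation. Endothelial markers (8 genes) summed to 173 to 199 scaled CPM in the 8 cultured libraries, against 4025 to 4031 in fresh cardiomyocytes and 3184 to 3244 in fresh fibroblasts. None of the marker lists had a gene at 0 in any group.

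The promoters of 3 members are printed. Hmgcs1 was the one of the 23 searched members with an exact match to the core of the sterol element that was searched for. Lss had the highest fold change in culture of the 28 members, and Nr1h2 was the one member that fell in culture. A link between the motifs and the changes in culture was not tested. Each printed promoter is the 250 bases before the RefSeq start of the gene on GRCm38.p6, read 5′ to 3′ on the gene's strand. Capitals mark matches on either strand to TCACNCCAC (a core of the sterol regulatory element), CCAAT (the NF-Y box) or GGGCGG (the Sp1 GC box), and no matches of different motifs overlapped.
Hmgcs1, chr13:119690101-119690350, plus strand: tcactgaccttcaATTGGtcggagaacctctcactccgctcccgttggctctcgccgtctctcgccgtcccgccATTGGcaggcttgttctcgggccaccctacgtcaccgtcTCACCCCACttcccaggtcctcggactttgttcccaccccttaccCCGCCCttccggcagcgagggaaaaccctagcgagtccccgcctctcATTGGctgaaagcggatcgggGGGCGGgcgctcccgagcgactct
Lss, chr10:76531355-76531604, plus strand: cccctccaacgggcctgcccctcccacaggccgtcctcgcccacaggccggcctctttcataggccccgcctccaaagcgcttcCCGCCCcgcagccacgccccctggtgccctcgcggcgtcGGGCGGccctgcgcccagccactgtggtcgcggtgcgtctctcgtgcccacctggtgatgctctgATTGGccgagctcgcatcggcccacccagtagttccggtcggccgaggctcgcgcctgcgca
Nr1h2, chr7:44553966-44554215, minus strand: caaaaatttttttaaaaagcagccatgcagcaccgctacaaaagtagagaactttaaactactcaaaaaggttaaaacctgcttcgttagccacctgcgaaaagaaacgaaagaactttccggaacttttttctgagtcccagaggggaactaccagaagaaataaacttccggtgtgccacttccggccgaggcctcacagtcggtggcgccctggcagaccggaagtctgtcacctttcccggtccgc

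A RefSeq window of 250 bases before to 50 after the start was used for 23 of the 28 members, that is all but Fdps, Fdft1, Sqle, Stard4 and Abcg1, and a gene with several starts counted once if any of its windows held the motif. The sterol element core was present in 1 of 23 members (Hmgcs1, 137 bases before its start) and in 1.44% of 27025 genes with a window. CCAAT was present in 18 of 23 members (78.3%), beside 41.1% of all genes with a window and 42.4% of the 10307 that were tested. GGGCGG was present in 20 of 23 members (87.0%), beside 38.2% of all genes and 67.5% of tested genes. The Nr1h2 window printed above held none of the 3 motifs before its start, the Lss stretch held 1 CCAAT box on the minus strand and a GC box on each strand, and the Hmgcs1 stretch held all 3 kinds. A match is an exact run of letters and was not shown here to be bound. Variants of the elements were not searched for, so a gene without a match may still hold one.

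Day 3 control cultures had higher levels of most sterol synthesis genes than fresh fibroblasts. Of the 28 members, 26 rose (92.9%), 1 fell (3.57%) and 1 did not pass the test, beside 43.5% of the 13977 tested genes that were higher and 43.4% that were lower. The members' median log2 fold change was 0.84, beside 0.00 over all genes, and 11 members were at least 2-fold higher. All 7 genes of the mevalonate branch, all 3 that make squalene and lanosterol, 7 of the 8 lanosterol genes and all 5 of the SREBP axis rose. Values are from limma on log2(scaled CPM + 0.5) with Benjamini-Hochberg adjustment over all tested genes at 0.05, and log2 fold changes carry their SE.

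Lss (lanosterol synthase, which closes the ring system; ENSMUSG00000033105.12, chr10:76531588-76557138) had 29.0 and 31.9 scaled CPM in control cultures, against 6.32 and 5.68 in fresh fibroblasts. Both control cultures lay far above both fresh libraries, a 4.76-fold difference (log2 2.25 ± 0.071, adjusted p = 2.81e-16). Sqle, the squalene epoxidase that commits squalene to sterols, had 52.6 and 49.6 scaled CPM in control cultures, against 16.0 and 14.5 in fresh fibroblasts (log2 1.71 ± 0.052, adjusted p = 1.29e-16). Fdft1, squalene synthase, had 39.5 and 37.6 scaled CPM in control cultures, against 17.5 and 16.9 in fresh fibroblasts (log2 1.14 ± 0.051). These 3 genes thus rose by 2.21-fold to 4.76-fold. Fdft1 overlaps Ctsb, and Lss the annotated transcript 4930483K19Rik, on opposite strands. Other members overlap annotated genes too, among them Scap (13.2% of its exon length) and Hmgcs1 (12.1%) on opposite strands. Tm7sf2 overlaps Vps51 on the same strand (12.1%). How strand was treated in counting is not given in the sources used here, and reads of such pairs cannot be told apart with certainty.

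In the mevalonate branch the farnesyl diphosphate synthase Fdps had the highest fold change, with 52.4 and 50.8 scaled CPM in control cultures and 15.6 and 14.6 in fresh fibroblasts (3.34-fold; log2 1.74 ± 0.054, adjusted p = 1.85e-16). Acat2, the cytosolic thiolase at the head of the route, had 22.4 and 18.3 scaled CPM in control cultures, against 9.08 and 8.42 in fresh fibroblasts, with the control libraries wider apart than the fresh ones. Mevalonate diphosphate decarboxylase, Mvd, had 15.0 and 13.6 scaled CPM in control cultures, against 7.08 and 6.70 in fresh fibroblasts. These 3 genes were at least 2-fold higher, whereas the other 4 rose less. Mevalonate kinase (Mvk) rose by 0.80 on the log2 scale, isopentenyl diphosphate isomerase (Idi1) by 0.66, phosphomevalonate kinase (Pmvk) by 0.45 and HMG-CoA synthase (Hmgcs1; ENSMUSG00000093930.2, chr13:119690379-119708260) by 0.30. Hmgcs1 had 87.7 and 77.2 scaled CPM in control cultures, against 67.3 and 66.1 in fresh fibroblasts, the smallest fold change of the branch. In GENCODE M21, 39.1% of the 50-base words of Acat2 recur in other genes, mostly Acat3, 26.2% of those of Fdps, mostly the overlapping Gm43738, and 17.7% of those of Idi1, so the levels of these 3 may be affected by how shared reads were counted.

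After lanosterol, 7 of 8 enzymes rose. Msmo1, the C4 sterol methyl oxidase, had 53.9 and 48.3 scaled CPM in control cultures, against 15.8 and 15.0 in fresh fibroblasts (log2 1.70 ± 0.057, adjusted p = 7.22e-16). The lanosterol demethylase Cyp51 had 62.4 and 57.6 scaled CPM in control cultures, against 19.8 and 20.8 in fresh fibroblasts (log2 1.54 ± 0.050). The desaturase Sc5d had 32.9 and 29.8 scaled CPM in control cultures, against 9.67 and 11.3 in fresh fibroblasts (log2 1.54 ± 0.070). The differences of these 3 ran from 2.90-fold to 3.24-fold. Nsdhl, the C4 decarboxylase, rose by 0.96, the isomerase Ebp by 0.87 and the reductase Hsd17b7 by 0.44 on the log2 scale. Dhcr7, the last-step reductase, had 22.7 and 24.0 scaled CPM in control cultures, against 19.7 and 21.7 in fresh fibroblasts (log2 0.17 ± 0.065, adjusted p = 0.0178). Its call did not survive leaving out control replicate 2 (log2 0.14, adjusted p = 0.106) or fresh fibroblast replicate 1 (log2 0.10, adjusted p = 0.241). Tm7sf2, a C14 sterol reductase, had 3.49 and 3.51 scaled CPM in control cultures, against 2.98 and 2.91 in fresh fibroblasts, and did not pass the test (adjusted p = 0.11).

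**Figure D1:**
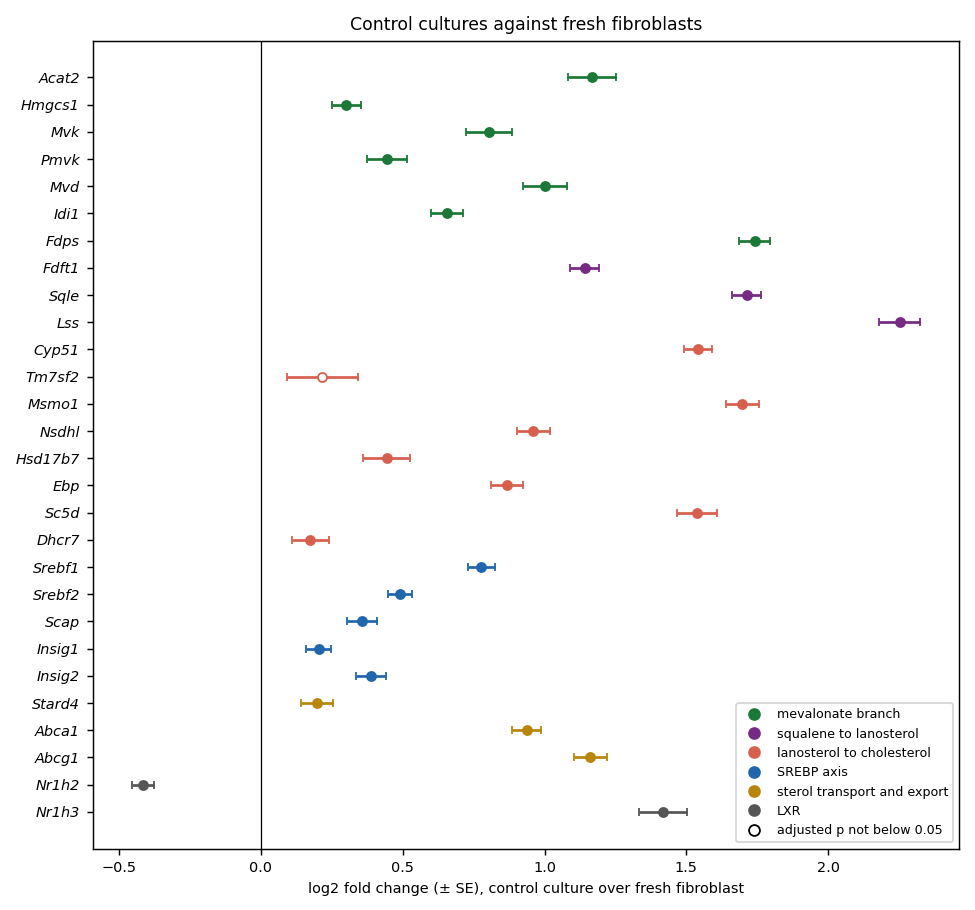
Log2 fold change (x axis, control cultures over fresh fibroblasts, with SE bars) of the 28 genes in pathway order, coloured by role and filled where the adjusted p was below 0.05. Lss lies farthest right at 2.25, Nr1h2 is the one gene left of 0 at -0.42, and Tm7sf2 is the one open point.

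The 5 genes of the SREBP axis all rose. Srebf1, which encodes SREBP-1, had 93.5 and 101 scaled CPM in control cultures, against 57.4 and 55.7 in fresh fibroblasts (log2 0.78 ± 0.048). Srebf2, which encodes the main SREBP of the cholesterol genes, had 138 and 149.6 scaled CPM in control cultures, against 99.4 and 105 in fresh fibroblasts (log2 0.49 ± 0.042). The escort Scap had 71.2 and 82.0 scaled CPM in control cultures, against 59.2 and 59.9 in fresh fibroblasts (log2 0.36 ± 0.052). These 3 activating members all rose. The retention protein Insig1, itself a target of SREBP, had 60.3 and 57.4 scaled CPM in control cultures, against 52.1 and 49.9 in fresh fibroblasts (log2 0.20 ± 0.045, adjusted p = 3.16e-04). Its partner Insig2 had 28.05 and 27.9 scaled CPM in control cultures, against 22.1 and 20.5 in fresh fibroblasts (log2 0.39 ± 0.052). Both Insig genes rose, Insig1 by the smallest amount of the axis. The median log2 fold change was 0.39 over the 5 genes of the axis and 0.98 over the 18 enzymes.

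The exporters and 1 of the 2 LXR genes rose as well. Abca1, which loads cholesterol onto lipid-poor apolipoproteins, had 294 and 327 scaled CPM in control cultures, against 159 and 165 in fresh fibroblasts (log2 0.94 ± 0.052, adjusted p = 1.99e-12). Abcg1, which exports sterol to mature lipoproteins, had 43.6 and 41.8 scaled CPM in control cultures, against 18.8 and 18.8 in fresh fibroblasts (log2 1.16 ± 0.057, adjusted p = 2.86e-13). Nr1h3, which encodes LXR alpha, had 13.3 and 12.7 scaled CPM in control cultures, against 4.87 and 4.25 in fresh fibroblasts (log2 1.42 ± 0.085, adjusted p = 6.18e-12). All 3 rose. Nr1h2, which encodes the widely expressed LXR beta (ENSMUSG00000060601.13, chr7:44549616-44553951), fell: it had 60.0 and 63.7 scaled CPM in control cultures, against 81.6 and 83.8 in fresh fibroblasts (log2 -0.42 ± 0.038, adjusted p = 5.42e-09). The cytosolic sterol carrier Stard4 had 27.8 and 28.8 scaled CPM in control cultures, against 24.2 and 25.0 in fresh fibroblasts (log2 0.20 ± 0.057, adjusted p = 0.00329). Beside these values, the 8 macrophage markers summed to 3332 to 3566 scaled CPM in control cultures and 858 to 864 in fresh fibroblasts, with 6 of the 8 higher and 1 lower, and 8 of 8 endothelial markers were lower. The 6 smooth muscle markers summed to 7642 to 7895 scaled CPM in control cultures and 1065 to 1089 in fresh fibroblasts (4 higher, 2 lower), and the 6 epicardial markers to 112.3 to 112.6 in control cultures and 211 to 223 in fresh fibroblasts (2 higher, 4 lower). The fibroblast sum was 24000 to 26190 scaled CPM in control cultures and 44050 to 44960 in fresh fibroblasts (3 of 11 higher, 5 lower). Of the 12 cardiomyocyte markers 9 were lower, 8 of them at least 2-fold, and 3 were higher (median log2 fold change -2.35), and their sum was 2849 to 3014 scaled CPM in control cultures and 2088 to 2148 in fresh fibroblasts. Their part in the sterol results was not tested, and in bulk RNA fewer cells of a type and less RNA per cell cannot be told apart.

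Without the library scaling factors the median of all genes moved to -0.10 and that of the members to 0.73, and 23 members were higher. The calls of Dhcr7, Insig1 and Stard4 were lost there (adjusted p = 0.349, 0.0661 and 0.156), so these 3 calls rest on the scaling. Plating, medium, viral infection and time separate these groups together and cannot be told apart.

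**Figure D2:**
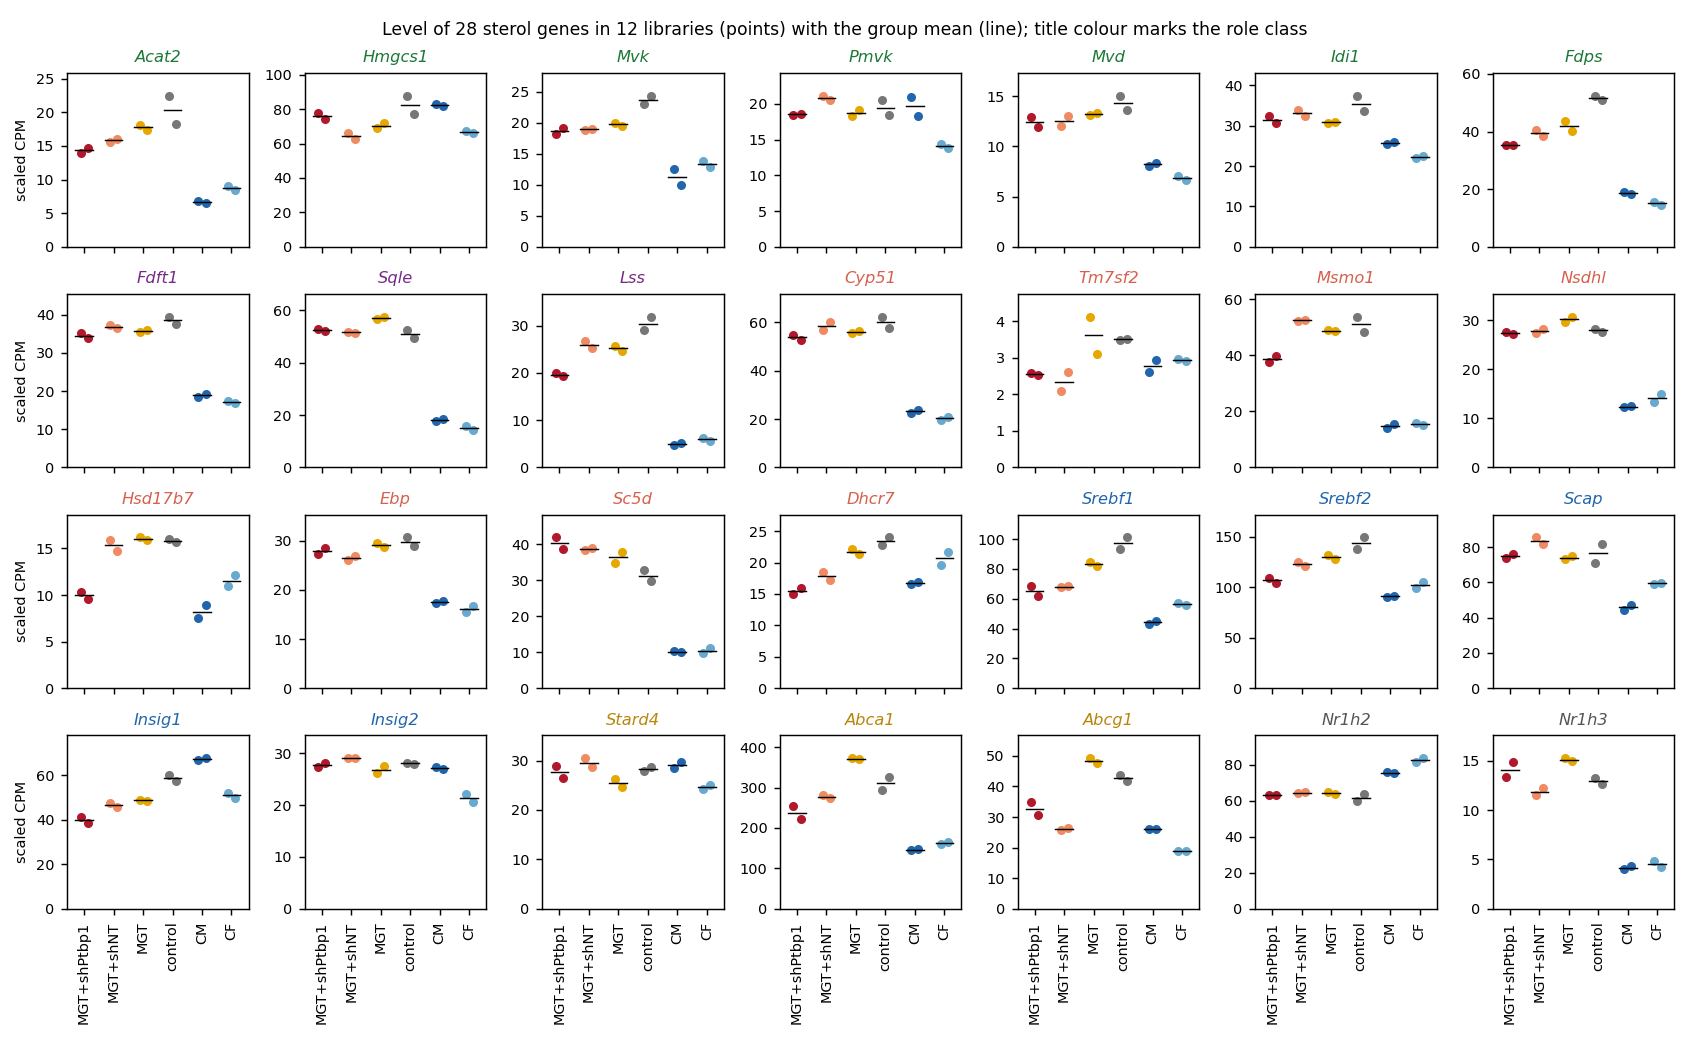
Scaled CPM (y axis, from 0) of each of the 28 genes in each of the 12 libraries (points) with the mean of each group (line), groups left to right as shPtbp1, shNT, MGT and control cultures, fresh cardiomyocytes (CM) and fresh fibroblasts (CF). Genes such as Sqle lie at 49.6 to 57.7 in all 8 cultured libraries and at 14.5 to 18.5 in all 4 fresh ones, whereas Nr1h2 has the opposite order.

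The same step was visible across all 12 libraries. In 17 of the 28 members (60.7%) every one of the 8 day 3 libraries was above every one of the 4 fresh libraries, in 1 member (3.57%) every day 3 library was below, and 10 overlapped. Over all tested genes 28.1% lay above in this way and 29.9% below. The 17 comprised 13 of the 18 enzymes together with Srebf1, Scap, Abca1 and Nr1h3. Summed over the 18 enzymes, the level was 534 and 525.5 scaled CPM in shPtbp1 cultures, 562 and 557 in shNT cultures, 572 and 574 in MGT cultures, 630.1 and 591 in control cultures, 321 and 321 in fresh cardiomyocytes, and 297 and 298 in fresh fibroblasts. Every culture thus held more summed enzyme message than either fresh preparation, with the highest sums in control cultures and the lowest in shPtbp1 cultures. These counts share control cultures and fresh fibroblasts with the comparison above.

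Levels of different genes were compared per kilobase of the principal transcript, and the order depends on the length used. For Fdps that transcript has 1382 bases, whereas all its annotated exons merged have 4208. In control cultures the highest members were Fdps at 37.3 scaled CPM per kb, Nr1h2 at 31.0, Abca1 at 30.3, Srebf2 at 28.4, Msmo1 at 25.0 and Hmgcs1 at 23.8, and the lowest was Tm7sf2 at 2.38. In fresh fibroblasts the order was led by Nr1h2 at 41.4 scaled CPM per kb, followed by Srebf2 at 20.1, Hmgcs1 at 19.3 and Insig1 at 18.9, with Lss lowest at 1.29. Nr1h2, Srebf2 and Hmgcs1 were thus near the top of the order in both groups, whereas Fdps stood at 10.9 in fresh fibroblasts. Within the squalene-to-lanosterol step, Sqle exceeded Lss per kb in both, at 18.5 against 6.53 in control cultures and 5.53 against 1.29 in fresh fibroblasts.

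Genes next to the pathway were called in both directions in control cultures, and their counts stand beside 43.5% of all tested genes that were higher and 43.4% that were lower. Among 8 tested genes of other sterol synthesis steps 5 rose and 1 fell. Aacs, which makes acetoacetyl-CoA, had 55.6 and 58.5 scaled CPM in control cultures, against 16.7 and 15.6 in fresh fibroblasts (log2 1.79 ± 0.052), and Por, the electron donor of Cyp51 and Sqle, rose by 0.85. Of 11 genes for SREBP processing and lipoprotein uptake 8 rose and 2 fell, among them the lipoprotein receptor Vldlr (log2 2.57 ± 0.045) and Scarb1 (log2 -0.82 ± 0.040), the receptor for high-density lipoprotein. Of 16 genes of fatty acid synthesis, the branch driven mainly by SREBP-1, 11 rose and 5 fell. Scd1 (log2 1.24 ± 0.038), a desaturase, and Mid1ip1 (log2 1.35 ± 0.045), a carboxylase activator, rose, whereas Acacb (log2 -2.35 ± 0.13), a mitochondrial acetyl-CoA carboxylase, fell. Of 13 genes of sterol storage and traffic 10 rose and 2 fell, with Nceh1 (log2 2.35 ± 0.048), a cholesteryl ester hydrolase, and the lysosomal genes Npc2 (log2 1.40 ± 0.034) and Lipa (log2 1.40 ± 0.039) among those that rose. Of 12 oxysterol and LXR-linked genes 4 rose and 8 fell (median log2 fold change -0.50). Ch25h, which makes 25-hydroxycholesterol, rose by 1.34 and Abcg4, an exporter, had 0.312 and 0.407 scaled CPM in control cultures, against 3.76 and 3.53 in fresh fibroblasts (log2 -2.27 ± 0.13).

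Fresh cardiomyocytes and fresh fibroblasts differed in many single members, in both directions. Of the 28 members 12 were higher in cardiomyocytes (42.9%) and 11 lower (39.3%), beside 35.2% and 41.7% of all tested genes, so the counts lay close to the background. The median log2 fold change was -0.05 for the members and for all genes alike. The fold changes ran from -0.47 (Hsd17b7) to 0.46 (Abcg1 and Pmvk), and no member differed by 2-fold. Each preparation held markers of both cell types, so these are differences between preparations and not between pure cell types.

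Pmvk had 21.0 and 18.3 scaled CPM in cardiomyocytes, against 14.4 and 13.9 in fibroblasts (log2 0.46 ± 0.070, adjusted p = 8.69e-06). Acat2 had 6.82 and 6.50 scaled CPM in cardiomyocytes, against 9.08 and 8.42 in fibroblasts (log2 -0.37 ± 0.084). Hmgcs1 had 83.3 and 82.1 scaled CPM in cardiomyocytes, against 67.3 and 66.1 in fibroblasts (log2 0.31 ± 0.050, adjusted p = 1.79e-05). The mevalonate branch was therefore split, with 5 genes higher (also Mvd, Idi1 and Fdps) and Acat2 and Mvk lower in cardiomyocytes. Sqle was higher, at 17.6 and 18.5 scaled CPM in cardiomyocytes against 16.0 and 14.5 in fibroblasts (log2 0.24), as was Fdft1 (log2 0.13). Lss, at 4.82 and 5.16 scaled CPM in cardiomyocytes against 6.32 and 5.68 in fibroblasts, was lower (log2 -0.24 ± 0.071). After lanosterol, Cyp51 was higher, at 22.6 and 23.9 scaled CPM in cardiomyocytes against 19.8 and 20.8 in fibroblasts (log2 0.19 ± 0.050). Hsd17b7 was lower at 7.54 and 8.92 scaled CPM in cardiomyocytes against 10.9 and 12.1 in fibroblasts (log2 -0.47 ± 0.082, adjusted p = 4.41e-05). Nsdhl (log2 -0.19) and Dhcr7 (log2 -0.30) were also lower, and Tm7sf2, Msmo1, Ebp and Sc5d did not pass the test.

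Within the SREBP axis the activating and the retaining members went opposite ways. Srebf1 had 43.3 and 44.8 scaled CPM in cardiomyocytes, against 57.4 and 55.7 in fibroblasts (log2 -0.36 ± 0.048, adjusted p = 1.90e-06). Scap had 44.6 and 47.2 scaled CPM in cardiomyocytes, against 59.2 and 59.9 in fibroblasts (log2 -0.37 ± 0.052, adjusted p = 3.01e-06). Srebf2 had 90.7 and 91.4 scaled CPM in cardiomyocytes, against 99.4 and 105 in fibroblasts (log2 -0.17 ± 0.042). These 3 were lower in cardiomyocytes. Insig1 had 66.6 and 67.7 scaled CPM in cardiomyocytes, against 52.1 and 49.9 in fibroblasts (log2 0.39 ± 0.045, adjusted p = 1.74e-07). Insig2 had 27.4 and 26.9 scaled CPM in cardiomyocytes, against 22.1 and 20.5 in fibroblasts (log2 0.34 ± 0.052). Both retention genes were higher, and Insig1 reached its highest level of the study in cardiomyocytes.

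Among the transporters, Abcg1 had 26.2 and 26.1 scaled CPM in cardiomyocytes, against 18.8 and 18.8 in fibroblasts (log2 0.46 ± 0.057, adjusted p = 5.56e-07). Abca1 had 144 and 148 scaled CPM in cardiomyocytes, against 159 and 165 in fibroblasts (log2 -0.15 ± 0.052, adjusted p = 0.015). Stard4 had 28.5 and 29.6 scaled CPM in cardiomyocytes, against 24.2 and 25.0 in fibroblasts (log2 0.23 ± 0.057). The exporters thus differed in opposite directions, and Abca1 differed by the least of them. Nr1h2 had 75.8 and 75.6 scaled CPM in cardiomyocytes, against 81.6 and 83.8 in fibroblasts (log2 -0.13 ± 0.038), and Nr1h3, at 4.001 and 4.30 scaled CPM in cardiomyocytes against 4.87 and 4.25 in fibroblasts, did not pass the test (adjusted p = 0.207). The counts of the related lists stand beside 35.2% of all tested genes that were higher and 41.7% that were lower. Of 8 genes of other sterol synthesis steps 2 were higher and 4 lower. Of 11 for SREBP processing and uptake 6 were higher and 4 lower, and of 16 for fatty acid synthesis 6 were higher and 9 lower. Of 13 for storage and traffic 3 were higher and 8 lower, and of 12 oxysterol and LXR-linked genes 4 were higher and 6 lower. Among the related genes Vldlr (log2 1.26), Acat1 (log2 1.06), the mitochondrial thiolase, and Acacb (log2 1.70) were higher. Lrp1 (log2 -1.10), Fads2 (log2 -0.88) and Soat1 (log2 -0.60), which esterifies cholesterol, were lower. The macrophage markers summed to 629.7 to 640.2 scaled CPM in cardiomyocytes and 858 to 864 in fibroblasts (2 of 8 higher, 6 lower). In cardiomyocytes 6 of 8 endothelial markers and 4 of 6 epicardial markers (1 lower) were higher, whereas 5 of 6 smooth muscle markers were lower and 1 higher. Of 11 fibroblast markers 10 were lower and 0 higher (median log2 fold change -0.99), with 5 at least 2-fold lower. All 12 cardiomyocyte markers were at least 2-fold higher. Their part in the sterol results was not tested. Leaving out fresh fibroblast replicate 2 ended the calls of Fdft1 (adjusted p = 0.158), Mvd (0.0851), Nsdhl (0.121), Abca1 (0.103) and Nr1h2 (0.0512). Lss and Mvk lost theirs without fresh fibroblast replicate 1 (0.0717 and 0.0932), Mvk, Mvd and Fdft1 without fresh cardiomyocyte replicate 2 (0.318, 0.0564 and 0.157), and Abca1 without fresh cardiomyocyte replicate 1 (0.0904).

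**Figure D3:**
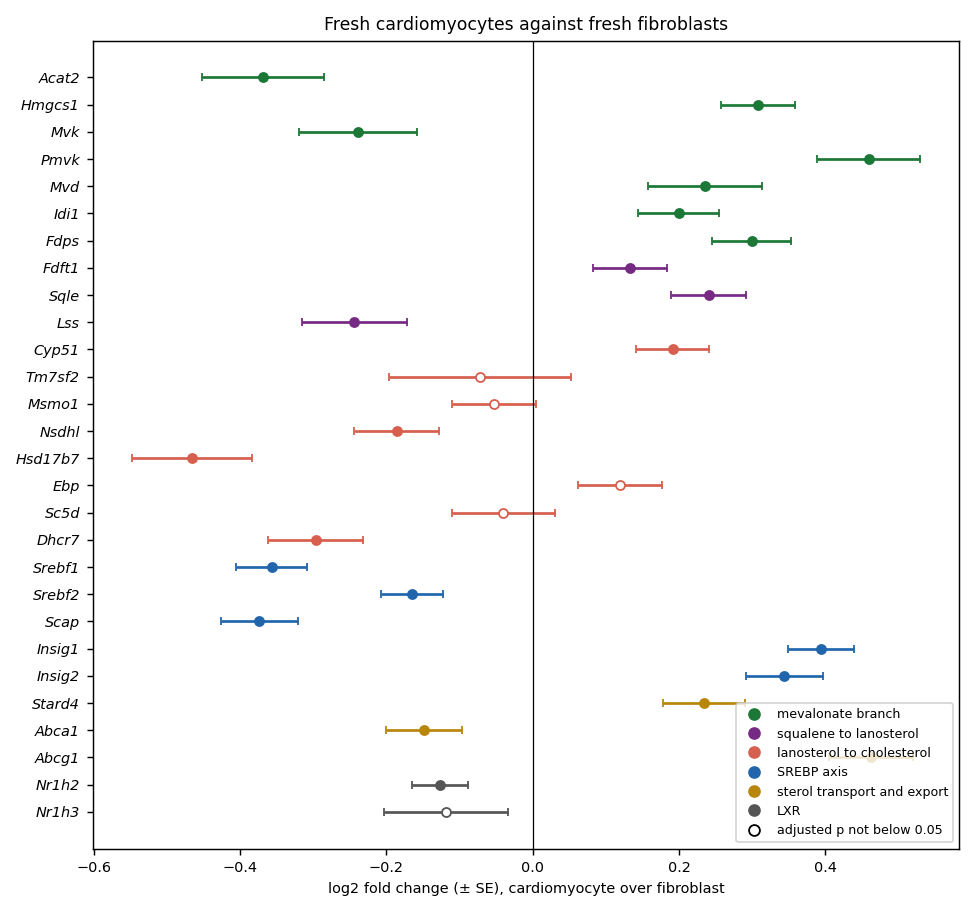
Log2 fold change (x axis, fresh cardiomyocytes over fresh fibroblasts, with SE bars) of the 28 genes in pathway order, coloured by role and filled where the adjusted p was below 0.05. Points lie on both sides of 0 in every role class except LXR, with Srebf1, Srebf2 and Scap left of 0 and both Insig genes right of it.

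MGT cultures, set against control cultures, showed small shifts. Of the 28 members 4 rose (14.3%) and 9 fell (32.1%), beside 17.9% of all tested genes that were higher and 17.7% that were lower. The median log2 fold change was -0.08 for the members and -0.01 for all genes, and the members ran from -0.30 to 0.26. The mevalonate branch had 4 of 7 genes lower and 0 higher, the SREBP axis 3 of 5 lower and 0 higher, and the lanosterol genes 1 of 8 higher and 0 lower.

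Fdps had 43.6 and 40.4 scaled CPM in MGT cultures, against 52.4 and 50.8 in control cultures (log2 -0.30 ± 0.054, adjusted p = 2.73e-04). Mvk (log2 -0.25), Hmgcs1 (log2 -0.22) and Idi1 (log2 -0.20) also fell, whereas Acat2, Pmvk and Mvd did not pass the test. Sqle had 56.8 and 57.7 scaled CPM in MGT cultures, against 52.6 and 49.6 in control cultures (log2 0.16 ± 0.052, adjusted p = 0.0192). Lss had 25.7 and 24.7 scaled CPM in MGT cultures, against 29.0 and 31.9 in control cultures (log2 -0.27 ± 0.071, adjusted p = 0.00658). Neighbouring steps thus moved in opposite directions. Sc5d was the 1 lanosterol gene called, at 35.0 and 37.8 scaled CPM in MGT cultures against 32.9 and 29.8 in control cultures (log2 0.21 ± 0.070, adjusted p = 0.0246).

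Insig1 had 49.0 and 48.5 scaled CPM in MGT cultures, against 60.3 and 57.4 in control cultures (log2 -0.27 ± 0.045, adjusted p = 1.08e-04). Srebf1 had 84.7 and 81.9 scaled CPM in MGT cultures, against 93.5 and 101 in control cultures (log2 -0.22 ± 0.048, adjusted p = 0.00134). Srebf2 had 132 and 129 scaled CPM in MGT cultures, against 138 and 149.6 in control cultures (log2 -0.14 ± 0.042, adjusted p = 0.013). All 3 were lower in MGT cultures. Scap, at 73.1 and 75.2 scaled CPM in MGT cultures and 71.2 and 82.0 in control cultures, and Insig2, at 26.2 and 27.5 in MGT cultures and 28.05 and 27.9 in control cultures, did not pass the test. The exporters went up: Abca1 had 373 and 369 scaled CPM in MGT cultures, against 294 and 327 in control cultures (log2 0.26 ± 0.052, adjusted p = 6.95e-04). Abcg1 had 49.3 and 47.6 scaled CPM in MGT cultures, against 43.6 and 41.8 in control cultures (log2 0.18 ± 0.057, adjusted p = 0.0205). Stard4 fell, with 26.2 and 24.7 scaled CPM in MGT cultures and 27.8 and 28.8 in control cultures (log2 -0.15 ± 0.057, adjusted p = 0.043). Nr1h3, at 15.3 and 14.9 scaled CPM in MGT cultures and 13.3 and 12.7 in control cultures, missed the threshold (adjusted p = 0.0605), as did Nr1h2 at 64.8 and 64.0 in MGT cultures and 60.0 and 63.7 in control cultures (adjusted p = 0.263).

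In fatty acid synthesis 7 of 16 genes fell and 1 rose, beside 17.7% of all tested genes that were lower and 17.9% that were higher, with Fasn (log2 -0.45 ± 0.053), the fatty acid synthase, and Acaca (log2 -0.30 ± 0.050), the cytosolic carboxylase, among those that fell and Scd1 (log2 0.25 ± 0.038) the one that rose. Among 8 genes of other sterol synthesis steps 2 rose and 2 fell, among 11 for SREBP processing and uptake 2 rose and 4 fell, among 13 for storage and traffic 6 rose and 6 fell, and among 12 oxysterol and LXR-linked genes 4 rose and 3 fell. Aacs fell by 0.37 and Ch25h by 0.45 on the log2 scale, and Vldlr rose by 0.27. The 8 macrophage markers summed to 3512 to 3615 scaled CPM in MGT cultures and 3332 to 3566 in control cultures, with 1 marker higher and 4 lower, and 12 cardiomyocyte markers summed to 4263 to 4448 in MGT cultures and 2849 to 3014 in control cultures, with 9 higher and 1 lower. Of 11 fibroblast markers 8 were lower and 2 higher, and their sum was 21250 to 21310 scaled CPM in MGT cultures and 24000 to 26190 in control cultures. Of 8 endothelial markers 5 were lower and 1 higher (median log2 fold change -0.53), of 6 epicardial markers 4 were lower and 0 higher (median -0.55), and of 6 smooth muscle markers 2 were lower and 1 higher. The part of these in the sterol results was not tested. With each library left out in turn, the members' median log2 fold change ran from -0.11 to -0.04. In each of these fits fewer members were called, and fewer of all tested genes too. Hmgcs1, Fdps, Srebf1, Insig1 and Abca1 were the 5 of 13 members that kept their call under every alternative run. Sqle lost it without MGT replicate 1 (adjusted p = 0.0582), MGT replicate 2 (0.106) and control replicate 2 (0.156), Abcg1 without the same libraries (0.127, 0.051 and 0.127), and Mvk likewise (0.0595, 0.113 and 0.117). Sc5d, Lss and Srebf2 lost theirs without MGT replicate 2 (0.217, 0.0675 and 0.12) or control replicate 2 (0.226, 0.0908 and 0.161). Idi1 lost it without MGT replicate 1 (0.0551), MGT replicate 2 (0.0508) or control replicate 1 (0.147), and Stard4 without MGT replicate 2 (0.286), control replicate 1 (0.057) or control replicate 2 (0.17).

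**Figure D4:**
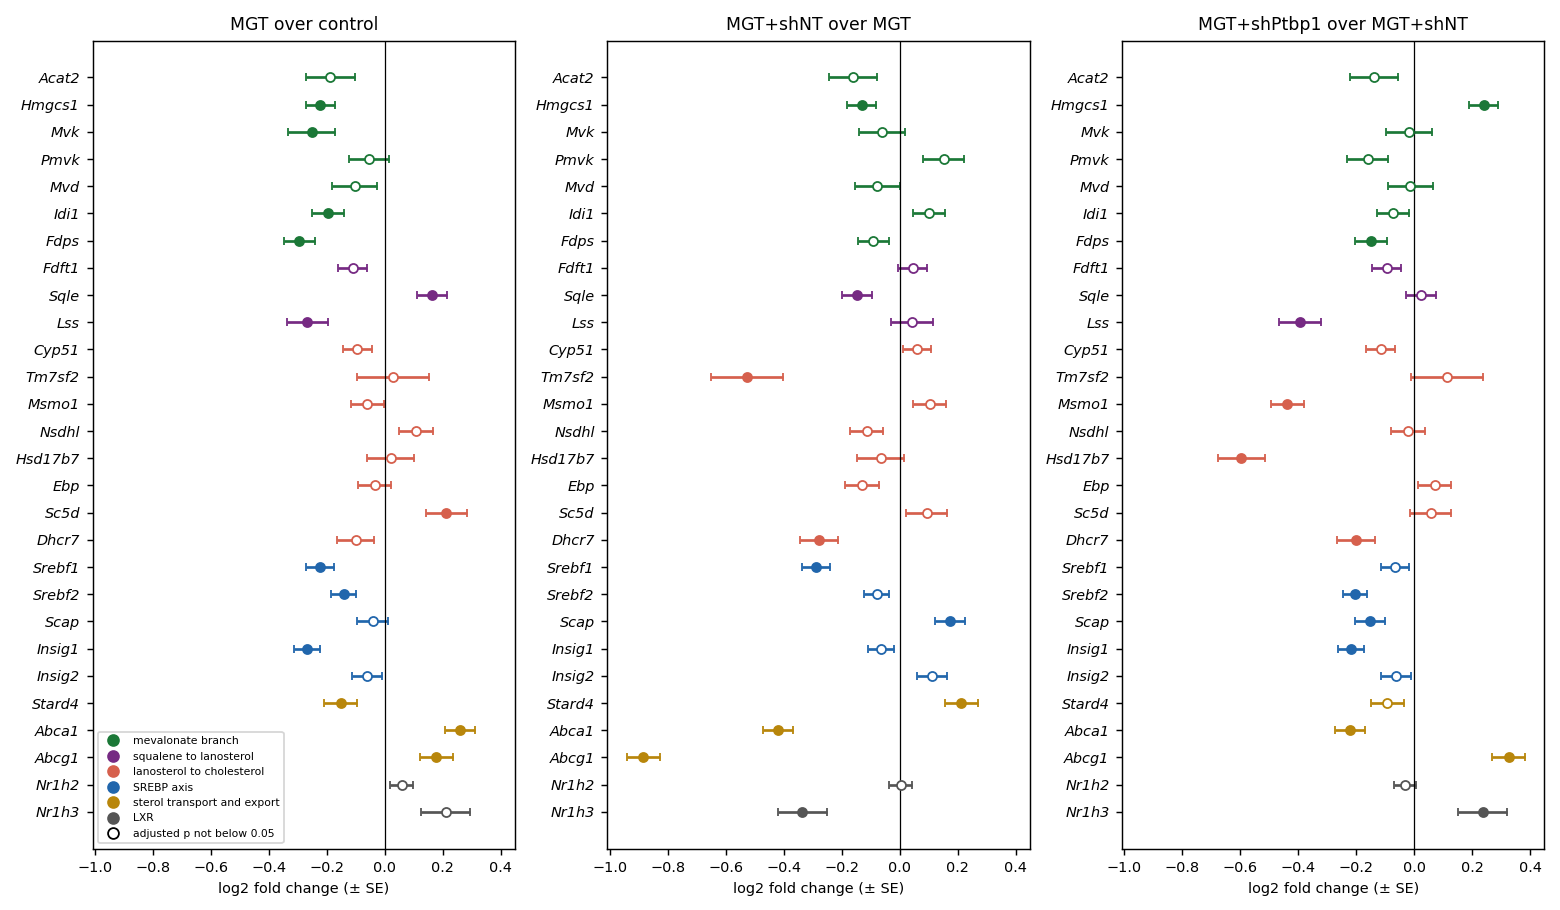
Log2 fold change (x axis, with SE bars) of the 28 genes in MGT over control cultures, shNT over MGT cultures and shPtbp1 over shNT cultures, coloured by role and filled where the adjusted p was below 0.05. Abcg1 in the middle panel (-0.88) and Hsd17b7 in the right panel (-0.60) lie farthest from 0.

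The exporters were lower in the cultures that had received the non-targeting hairpin virus beside MGT. In shNT cultures, set against MGT cultures, 2 of the 28 members rose (7.14%) and 8 fell (28.6%), beside 24.6% of all tested genes that were higher and 20.1% that were lower. The median log2 fold change was -0.07 for the members and 0.02 for all genes. This comparison shares its MGT libraries with the preceding one and its shNT libraries with the next.

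Abcg1 (ENSMUSG00000024030.7, chr17:31057675-31117988) had 25.6 and 26.4 scaled CPM in shNT cultures, against 49.3 and 47.6 in MGT cultures (log2 -0.88 ± 0.057, adjusted p = 2.41e-10). Abca1 had 281 and 274 scaled CPM in shNT cultures, against 373 and 369 in MGT cultures (log2 -0.42 ± 0.052, adjusted p = 2.23e-06). Nr1h3 had 11.5 and 12.2 scaled CPM in shNT cultures, against 15.3 and 14.9 in MGT cultures (log2 -0.34 ± 0.085, adjusted p = 0.00323). Both exporters and LXR alpha were lower in shNT cultures. Nr1h2, at 64.2 and 64.9 scaled CPM in shNT cultures and 64.8 and 64.0 in MGT cultures, did not pass the test (adjusted p = 0.957). The sterol carrier Stard4 rose, with 30.5 and 28.6 scaled CPM in shNT cultures and 26.2 and 24.7 in MGT cultures (log2 0.21 ± 0.057, adjusted p = 0.00479).

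Beside these, 8 of 8 macrophage markers fell (median log2 fold change -1.77), and their sum was 1288 to 1342 scaled CPM in shNT cultures and 3512 to 3615 in MGT cultures. No marker was at 0 in either group, and 5 of 8 endothelial markers were higher and 1 lower (median log2 fold change 0.45), with a sum of 183.8 to 191.9 scaled CPM in shNT cultures and 173.0 to 180.8 in MGT cultures. Of 12 cardiomyocyte markers 4 were lower and 2 higher, of 11 fibroblast markers 1 was lower and 4 higher, of 6 epicardial markers 1 was lower and 2 higher, and of 6 smooth muscle markers 1 was lower and 1 higher. The part of these lists in the fall of Abca1, Abcg1 and Nr1h3 was not tested.

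**Figure D5:**
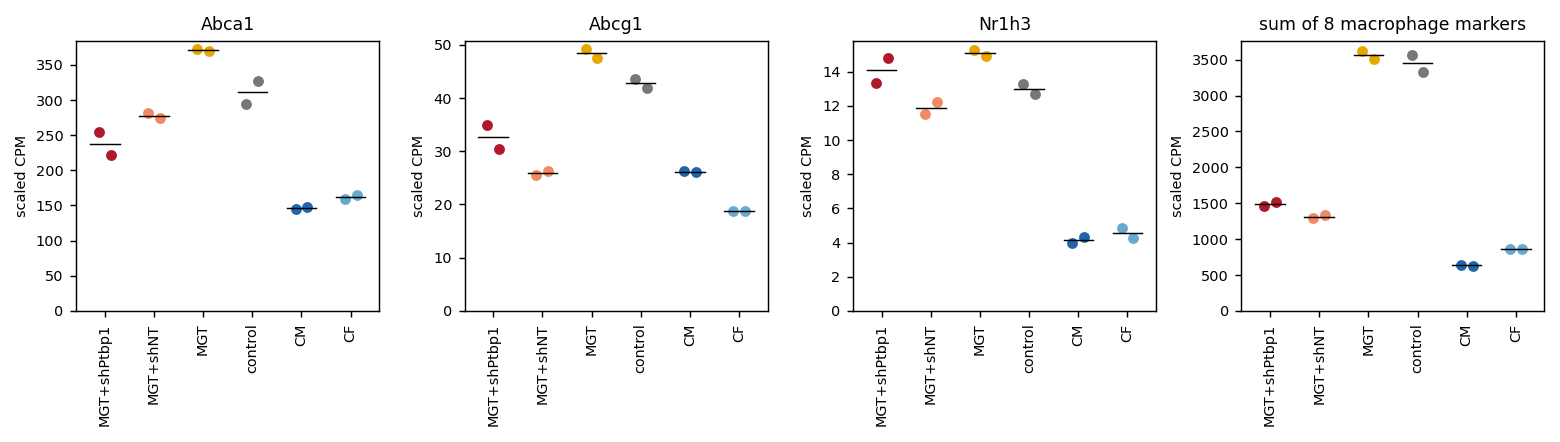
Scaled CPM (y axis, from 0) of Abca1, Abcg1 and Nr1h3 and the summed scaled CPM of 8 macrophage markers in each of the 12 libraries (points) with the mean of each group (line). In all 4 panels the shNT cultures lie below the MGT cultures, and the marker sum lies at 1288 to 1342 in shNT cultures and 3512 to 3615 in MGT cultures. Lyz2 is the largest part of the sum in every cultured library.

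In the SREBP axis Srebf1 had 67.6 and 68.4 scaled CPM in shNT cultures, against 84.7 and 81.9 in MGT cultures (log2 -0.29 ± 0.048, adjusted p = 7.09e-05). Scap had 85.7 and 81.7 scaled CPM in shNT cultures, against 73.1 and 75.2 in MGT cultures (log2 0.17 ± 0.052, adjusted p = 0.0117). Srebf1 fell and Scap rose, while Srebf2 (125 and 121 in shNT and 132 and 129 in MGT cultures), Insig1 (47.5 and 45.8 in shNT and 49.0 and 48.5 in MGT cultures) and Insig2 (29.0 and 29.0 in shNT and 26.2 and 27.5 in MGT cultures) did not pass the test. Among the enzymes 4 of 18 fell and 0 rose, beside 20.1% of all tested genes that were lower and 24.6% that were higher. In this fit the number that fell thus lay close to the background. When the 4 libraries were fitted alone, Acat2, Fdps, Nsdhl and Ebp were called lower as well, beside 3309 of 12698 tested genes. Tm7sf2 had 2.09 and 2.60 scaled CPM in shNT cultures, against 4.13 and 3.10 in MGT cultures (log2 -0.53 ± 0.12, adjusted p = 0.00194). The MGT libraries were themselves far apart, and 9.87% of the 50-base words of Tm7sf2 recur in the overlapping gene Vps51. Dhcr7 had 18.4 and 17.3 scaled CPM in shNT cultures, against 22.1 and 21.4 in MGT cultures (log2 -0.28 ± 0.065, adjusted p = 0.00171). Sqle (log2 -0.15 ± 0.052, adjusted p = 0.0257) and Hmgcs1 (log2 -0.13 ± 0.050, adjusted p = 0.0417) fell by little. Hmgcs1 had 66.1 and 62.6 scaled CPM in shNT cultures, against 68.9 and 72.1 in MGT cultures, and Sqle had 51.9 and 51.3 in shNT cultures, against 56.8 and 57.7 in MGT cultures.

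In fatty acid synthesis 10 of 16 genes fell and 1 rose, beside 20.1% of all tested genes that were lower and 24.6% that were higher, led by the desaturase Scd2 at 157 and 155 scaled CPM in shNT cultures and 460.2 and 461 in MGT cultures (log2 -1.56 ± 0.049), with Mid1ip1 (log2 -1.06 ± 0.045) and the citrate lyase Acly (log2 -0.47 ± 0.037). In storage and traffic 8 of 13 fell and 1 rose, with log2 fold changes of -2.02 to 0.23 over the list and 2 genes at least 2-fold lower. Those that fell included Nceh1 (log2 -1.06 ± 0.048), Gramd1b (log2 -0.83 ± 0.070), a sterol transporter at membrane contacts, and Pltp (log2 -0.63 ± 0.046), the phospholipid transfer protein. Among 8 genes of other sterol synthesis steps 3 rose and 2 fell, among 11 for SREBP processing and uptake 4 rose and 6 fell, and among 12 oxysterol and LXR-linked genes 5 rose and 4 fell. When the 4 libraries were fitted alone, 13 members were called lower, beside 3309 of 12698 tested genes. In the main fit 2809 of 13977 tested genes were lower. With each library left out in turn, the members' median log2 fold change ran from -0.09 to -0.05. Srebf1, Abca1, Abcg1, Nr1h3 and Dhcr7 kept their call under every alternative run. Tm7sf2 lost its call without MGT replicate 1 (adjusted p = 0.0629), Scap without shNT replicate 1 (0.106) or MGT replicate 1 (0.0878), and Stard4 without shNT replicate 1 (0.0691) or MGT replicate 2 (0.0604). Sqle lost its call without each library in turn (0.0776 to 0.122), and Hmgcs1 without shNT replicate 2 (0.278), MGT replicate 1 (0.057) or MGT replicate 2 (0.259).

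Some late sterol genes and regulators were lower in cultures with Ptbp1 knocked down, while others did not pass the test. In shPtbp1 cultures, set against shNT cultures, 3 of the 28 members rose (10.7%) and 9 fell (32.1%), beside 16.7% of all tested genes that were higher and 18.1% that were lower. The median log2 fold change was -0.08 for the members and 0.00 for all genes. Those that fell comprised 5 enzymes (Fdps, Lss, Msmo1, Hsd17b7 and Dhcr7), 3 genes of the SREBP axis and Abca1. Those that rose were Hmgcs1, Abcg1 and Nr1h3. The other 12 of the 18 enzymes did not pass the test, among them Sqle, Fdft1, Cyp51, Tm7sf2, Nsdhl, Ebp and Sc5d.

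Hsd17b7 (ENSMUSG00000026675.12, chr1:169949535-169969241), the 3-keto reductase of the C4 demethylation steps, had 10.3 and 9.63 scaled CPM in shPtbp1 cultures, against 15.9 and 14.8 in shNT cultures (log2 -0.60 ± 0.082, adjusted p = 1.49e-05). Msmo1 had 37.5 and 39.8 scaled CPM in shPtbp1 cultures, against 52.4 and 52.7 in shNT cultures (log2 -0.44 ± 0.057, adjusted p = 8.32e-06). Lss had 19.9 and 19.4 scaled CPM in shPtbp1 cultures, against 26.7 and 25.3 in shNT cultures (log2 -0.40 ± 0.071, adjusted p = 2.71e-04). In all 3 the shPtbp1 libraries lay well below both shNT libraries, and below all MGT and control libraries too. Nsdhl, which acts between Msmo1 and Hsd17b7 on the same C4 methyl groups, had 27.6 and 27.3 scaled CPM in shPtbp1 cultures and 27.5 and 28.3 in shNT cultures and did not pass the test (adjusted p = 0.82). Dhcr7 had 15.0 and 16.0 scaled CPM in shPtbp1 cultures, against 18.4 and 17.3 in shNT cultures (log2 -0.20 ± 0.065, adjusted p = 0.0218). Fdps had 35.5 and 35.4 scaled CPM in shPtbp1 cultures, against 40.4 and 38.4 in shNT cultures (log2 -0.15 ± 0.054, adjusted p = 0.0382). Hmgcs1 went the other way, with 77.6 and 74.4 scaled CPM in shPtbp1 cultures and 66.1 and 62.6 in shNT cultures (log2 0.24 ± 0.050, adjusted p = 0.00109).

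Among the regulators, Insig1 had 41.3 and 38.7 scaled CPM in shPtbp1 cultures, against 47.5 and 45.8 in shNT cultures (log2 -0.22 ± 0.045, adjusted p = 8.25e-04). Srebf2 had 109 and 104 scaled CPM in shPtbp1 cultures, against 125 and 121 in shNT cultures (log2 -0.21 ± 0.042, adjusted p = 8.79e-04). Scap had 74.1 and 76.2 scaled CPM in shPtbp1 cultures, against 85.7 and 81.7 in shNT cultures (log2 -0.15 ± 0.052, adjusted p = 0.0291). All 3 fell, and Insig1 was lower in both shPtbp1 libraries than in any other library of the study. Srebf1 (68.3 and 61.8 in shPtbp1 and 67.6 and 68.4 in shNT cultures, adjusted p = 0.315) and Insig2 (27.3 and 28.1 in shPtbp1 and 29.0 and 29.0 in shNT cultures, adjusted p = 0.377) did not pass the test. The exporters split: Abca1 had 254 and 222 scaled CPM in shPtbp1 cultures, against 281 and 274 in shNT cultures (log2 -0.22 ± 0.052, adjusted p = 0.00253). Abcg1 had 35.0 and 30.5 scaled CPM in shPtbp1 cultures, against 25.6 and 26.4 in shNT cultures (log2 0.32 ± 0.057, adjusted p = 2.06e-04). Nr1h3 had 13.3 and 14.8 scaled CPM in shPtbp1 cultures, against 11.5 and 12.2 in shNT cultures (log2 0.24 ± 0.085, adjusted p = 0.0372). Abca1 fell while Abcg1 and Nr1h3 rose, and Abcg1 still lay below its MGT level. Stard4 (28.8 and 26.5 in shPtbp1 and 30.5 and 28.6 in shNT cultures) and Nr1h2 (63.0 and 63.1 in shPtbp1 and 64.2 and 64.9 in shNT cultures) did not pass the test.

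In fatty acid synthesis 7 of 16 genes were higher and 2 lower, beside 16.7% and 18.1% of all tested genes. Mid1ip1 had 49.6 and 51.2 scaled CPM in shPtbp1 cultures, against 32.1 and 30.1 in shNT cultures (log2 0.69 ± 0.045), and Scd2 (log2 0.53 ± 0.049), Acly (log2 0.47 ± 0.037) and malic enzyme, Me1 (log2 0.43 ± 0.044), also rose. Among uptake genes the lipoprotein receptor Vldlr rose (log2 0.36 ± 0.045) and Scarb1 fell (log2 -0.27 ± 0.040). Over each list, 1 of 8 genes of other sterol synthesis steps rose and 2 fell (lowest log2 fold change -0.53), 4 of 11 for SREBP processing and uptake rose and 3 fell, 3 of 13 for storage and traffic rose and 4 fell, and 1 of 12 oxysterol and LXR-linked genes rose and 2 fell. Of the 8 macrophage markers 1 rose and 6 fell, and their sum was 1464 to 1513 scaled CPM in shPtbp1 cultures and 1288 to 1342 in shNT cultures. The 1 that rose, Lyz2, made up most of that sum. It had 1091 and 1141 scaled CPM in shPtbp1 cultures, against 845 and 888 in shNT cultures. Of 12 cardiomyocyte markers 8 rose, with a sum of 4942 to 5272 scaled CPM in shPtbp1 cultures and 4123 to 4391 in shNT cultures. Of 11 fibroblast markers 6 rose and 1 fell, and their sum was 21850 to 23270 scaled CPM in shPtbp1 cultures and 21240 to 21710 in shNT cultures. Of 6 epicardial markers 4 fell and 0 rose (median log2 fold change -0.37), of 8 endothelial markers 2 rose and 1 fell, and of 6 smooth muscle markers 1 rose and 2 fell. The part of these in the sterol results was not tested.

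Across the replicates left out in turn, 6 to 9 members were lower and 2 to 3 higher. Leaving out shPtbp1 replicate 2, the library whose source label names Ptbp2, ended the calls of Abca1 (adjusted p = 0.0662), Fdps (0.113), Nr1h3 (0.272) and Scap (0.0505), while Dhcr7 (0.138), Fdps (0.093) and Scap (0.121) were lost without shPtbp1 replicate 1. Dhcr7 (0.184), Fdps (0.26), Nr1h3 (0.2) and Scap (0.206) were lost without shNT replicate 1, and Nr1h3 (0.0615) without shNT replicate 2. Hsd17b7, Msmo1, Lss, Srebf2, Insig1, Hmgcs1 and Abcg1 kept their call under every alternative run.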

How the data were processed

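Polyadenylated RNA of 12 libraries (6 groups of 2, by title) was measured; the labels' protocols name a strand-preserving library kit. A single CPM table of 23423 rows was deposited, and the submitters' processing notes list HTSeq 0.6.1p1, TopHat2 2.1.0 and FastQC with the mm10 build. Neither the gene annotation nor how HTSeq treated strand is given in the sources used here. Every deposited CPM column sums to 1000000, and 100% of values were whole reads within a tolerance of 0.1 reads, so depth and reads could be recovered. Replicates of every group differed by more than counting noise.

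CPM were divided by median-of-ratios factors, and log2(scaled CPM + 0.5) was fitted in limma 3.58.1 (R 4.3.3) with 6 group means over the 12 libraries, 6 residual degrees of freedom and a trended prior. Genes needed 1 CPM in 2 libraries. All tests were two-sided. Benjamini-Hochberg adjustment covered all 13977 tested genes in each comparison, and the threshold was 0.05. The fit was also run on simulated data with far fewer changed genes than were called here. Its outcome is not given, so it is no measure of how the fit did on these data. Fold changes on the log2(scaled CPM + 0.5) scale understate changes of low genes. Alternatives were other scalings, pseudocounts of 0.1 and 2, filters, the compared libraries alone, a robust prior, a replicate block, edgeR 4.0.16 on the recovered reads, and each library left out.

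The members, given by name with no threshold on a value, and the related and marker lists were all chosen with earlier results of these data known. All members are named. Values in each library are given for regulators, transporters and the called member with the largest change in each role class and direction, and others were added where they help. Of each related list, at most 4 called genes among those with the largest changes are named in a comparison, and the rest are only counted or not reported here. Gene positions and lengths are from GENCODE M21 (GRCm38) and promoter windows from RefSeq.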

Additional observations from a re-analysis of the deposited data

How the results depend on the processing

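No member changed direction past the threshold under any alternative run. In the comparison of control cultures with fresh fibroblasts the members' median log2 fold change was 0.73 without further scaling, and 25 to 26 members were higher with each library left out. Fresh cardiomyocytes against fresh fibroblasts gave 10 to 12 higher and 8 to 10 lower with each library left out, and shPtbp1 against shNT cultures gave 2 to 3 higher and 6 to 9 lower. For MGT against control cultures, 2 members were higher with no filter on low values. Their median log2 fold change there ran from -0.11 to -0.04 over the fits with each library left out. For shNT against MGT cultures, 1 was higher with no filter, 13 were lower when the 4 libraries were fitted alone, and 0 to 2 were higher and 5 to 7 lower with each library left out. The cause was not tested, though fits without a library rest on fewer samples and the fit without a filter tests more genes. With any library left out, fewer of all tested genes were called too, in every comparison. The edgeR quasi-likelihood test on the recovered reads called 6325 genes higher and 5862 lower in control cultures against fresh fibroblasts, 4747 and 5936 in cardiomyocytes against fibroblasts, 2578 and 2578 in MGT against control, 2978 and 3188 in shNT against MGT, and 2448 and 2488 in shPtbp1 against shNT cultures. Over single members and alternatives, 78 calls were lost and 21 were gained.

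Replicate numbers were shared by all groups, but deviations of same-numbered libraries correlated at -0.14 to 0.16 over 13977 genes in the 15 pairs of groups (0.16 for shPtbp1 and shNT cultures), and with 2 libraries a group the numbers were not taken to pair them. A fit with the replicate block called 26 higher and 1 lower in control cultures against fresh fibroblasts, 12 and 11 in cardiomyocytes against fibroblasts, 4 and 9 in MGT against control, 2 and 8 in shNT against MGT, and 3 and 9 in shPtbp1 against shNT cultures, as without it.

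With 2 libraries a group, a difference that missed the threshold is not shown to be absent. Tm7sf2 (SE 0.12) and Nr1h3 (SE 0.0845) had the largest SE of the 28 members on the log2 scale, and small differences are least certain there. A call kept in each alternative was seen for 24 of 27 members in control cultures against fresh fibroblasts, 16 of 23 in cardiomyocytes against fibroblasts, 7 of 12 in shPtbp1 against shNT, 5 of 13 in MGT against control and 5 of 10 in shNT against MGT cultures.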
